A study of Mus musculus with 9 samples.

Results

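Bone morphogenetic protein (BMP) signalling was examined through 10 genes in mouse embryoid bodies (EBs), which are clumps of embryonic stem cells that have been set to differentiate. The genes were listed by name: the ligands *Bmp2*, *Bmp4* and *Bmp7*, the inhibitor-of-differentiation genes *Id1*, *Id2*, *Id3* and *Id4*, the inhibitory Smad gene *Smad6*, and the homeobox genes *Msx1* and *Msx2*. They are 10 of the 55471 genes counted in 9 RNA-seq libraries. All 9 libraries were of EBs kept for 3 days in differentiation medium on gelatin, with 3 libraries from wild-type EBs (WT), 3 from *Tnfaip2-/-* EBs (KO) and 3 from *Tnfaip2-/-* EBs given 8 μM palmitic acid (PA) together with 8 μM of its carnitine ester, palmitoyl-L-carnitine (PC), here KO_PAPC. WT and KO EBs received 0 μM of both lipids. The knockout cells were a single clone made by CRISPR/Cas9 from the parental line E-14, and each library came from a pool of EBs. A difference between WT and KO therefore cannot be told apart from a difference between that clone and its parental line. By the methods, WT and KO EBs formed in ES cell medium before they were plated, while cells given PA/PC formed EBs in the differentiation medium with both lipids already present. Whether KO controls were also formed in that medium is not given in the sources used here, so PA/PC cannot be told apart from the medium and from the earlier exposure. The methods give vehicle to the KO EBs that served as controls for PA/PC, which the labels do not mention, and the labels name no batch or sequencing date. The comparisons address how loss of *Tnfaip2* changes differentiating EBs and whether PA/PC changes KO EBs towards WT.

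BMP ligands are secreted dimers that bring together type I and type II receptor kinases at the cell surface. The type I receptors phosphorylate Smad1, Smad5 and Smad9, which enter the nucleus with Smad4 and switch on direct targets, among them *Id1*, *Id2*, *Id3*, *Smad6*, *Msx1* and *Msx2*. Id proteins bind the basic helix-loop-helix E proteins and keep them off DNA, and Smad6 feeds back to dampen the signal. In mouse embryonic stem cells BMP and Id proteins hold back neural differentiation, and in the embryo *Bmp4* comes early from extraembryonic ectoderm and acts on the neighbouring epiblast to induce mesoderm and germ cells.

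In KO EBs the ligand *Bmp4* and 3 of the Id genes moved in opposite directions. *Bmp4* was 2.86-fold higher in KO than in WT, whereas *Id2* was 5.9-fold, *Id1* 2.43-fold and *Id3* 1.61-fold lower, and *Msx1* was 4.55-fold lower. *Smad6* and *Id4*, which are also BMP-responsive, rose together with *Bmp4* in the same libraries. With PA/PC, all 3 ligands, *Id4* and *Smad6* fell relative to KO, while *Id1*, *Id2*, *Id3*, *Msx1* and *Msx2* rose. For *Bmp4*, *Bmp7*, *Id2*, *Id3*, *Id4*, *Msx1* and *Msx2* the KO_PAPC level lay on the other side of WT from KO. How many of all tested genes did so was not counted. In KO_PAPC versus WT 70.6% of all tested genes were called, so this is not shown to be particular to the BMP genes. In bulk RNA, fewer cells that express a gene and less RNA per cell cannot be told apart, here or below. These folds are from edgeR's quasi-likelihood test on each pair of groups, and the values and errors are given below gene by gene.

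Depth was even, at 27362913 to 28914312 counts per library, and replicates lay close together, with a biological coefficient of variation of 2.093% to 2.65%. Every pair of replicates still differed by more than sampling noise. The methods describe the KO and KO_PAPC libraries as independent pools of EBs and those of WT as biological replicates, and the labels only number them. The p-values measure the spread between these pools. *Tnfaip2* itself was near the detection limit, with 16, 6 and 10 counts in WT, 5, 6 and 8 in KO and 25, 14 and 16 in KO_PAPC. It did not pass the filter on low counts in KO versus WT and gave no check of the knockout labels. In KO_PAPC it was 3.3-fold higher than in KO (1.72 ± 0.363, edgeR adjusted p = 5.49e-05), although both groups carry the knockout. Against WT the log2 value was 0.95 ± 0.343 (edgeR adjusted p = 0.0164) with overlapping groups, and this call was lost with DESeq2 and on leaving out WT replicate 2 or KO_PAPC replicate 1. Hence every direction is that of the libraries labelled so. Levels are given as CPM, in which each count is scaled by the total of its library, whereas log2 fold changes were scaled by TMM factors. Scaling by library totals instead would shift the median of all genes by -0.166 in KO_PAPC versus KO and by -0.165 in KO_PAPC versus WT on the log2 scale, so CPM ratios and fold changes differ by about this much there.

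Differences were common in these libraries, and the counts of BMP genes have to be read against that. In KO versus WT, 9 of the 10 BMP genes were called at an adjusted p under 0.05, against 73.8% of all tested genes. Of the 10, 4 were higher in KO (36.8% of all tested genes were) and 5 lower (37.1% of all tested genes). In KO_PAPC versus KO all 10 were called, against 81.8% of tested genes, with 5 higher and 5 lower (39.6% and 42.2% of all tested genes). In KO_PAPC versus WT 9 were called against 70.6%, with 5 higher and 4 lower (34.2% and 36.4% of all tested genes). The median log2 fold change of the 10 genes was -0.15, 0.09 and -0.02 in these contrasts, beside -0.01, -0.02 and -0.02 over all tested genes. Neither the number called nor the median of the 10 thus stood out, and what the genes showed lay in the direction and size of each. The KO libraries enter both of the first 2 contrasts, so chance error in the KO libraries enters both with opposite sign, and only the values of each contrast are set side by side below.

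**Figure D1:**
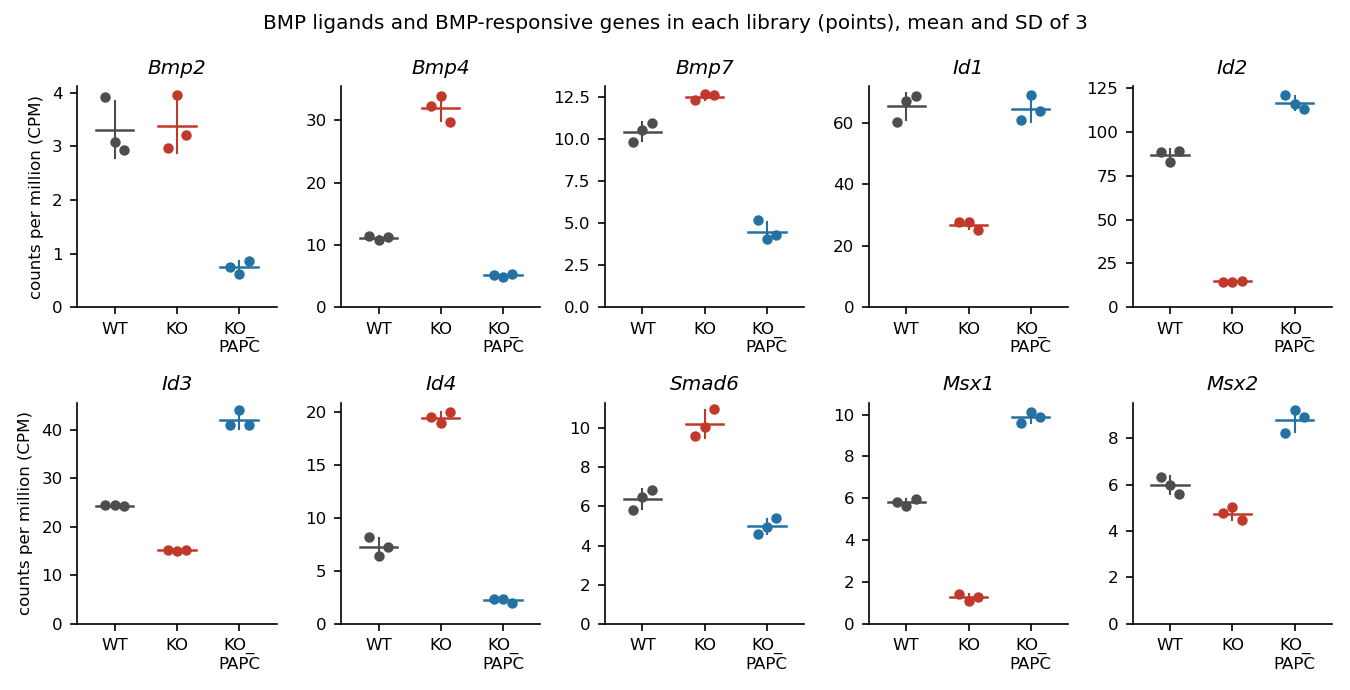
CPM of each of the 10 BMP genes (y axis, from 0) in the 3 WT, 3 KO and 3 KO_PAPC libraries (x axis), with 1 point per library and a line at the group mean. Bmp4, Id4 and Smad6 are highest in KO, whereas Id1, Id2, Id3, Msx1 and Msx2 are lowest there, and Bmp2 is low in KO_PAPC with WT and KO overlapping.

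To show the sequence in front of RefSeq starts, promoter windows were taken from 250 bases before to 50 bases after each start (GRCm38.p6). They were searched on both strands for 3 short words that Smad complexes are known to bind. These were GGCGCC, the GC-rich form, GTCTAGAC, the palindromic form, and CAGACA. Windows were listed for 7 of the 10 genes, namely *Bmp4*, *Id2*, *Id3*, *Id4*, *Smad6*, *Msx1* and *Msx2*. All 250 upstream bases of the *Id3* and *Msx2* windows lay in annotated exons of the same gene, as did 161 of those of *Id2*. GGCGCC lay in 2 of the 7 windows, those of *Id2* and *Id4*, and in 11.9% of all 32851 windows. GTCTAGAC lay in 1 of the 7, that of *Smad6*, and in 0.213% of all windows. CAGACA lay in 0 of the 7 and in 21.0% of all windows. A match is a run of letters and not a bound site, and these data hold no measurement of binding. The sequences below are on the strand of the gene from 5′ to 3′, with the matched word in capitals. *Bmp4* is shown as the ligand that changed most in KO, *Id2* and *Id4* because they hold the same word and moved in opposite directions, and *Smad6* for the rare palindrome.
Bmp4 (chr14:46390670-46390919, minus strand, directly upstream of the start, outside exons, no match): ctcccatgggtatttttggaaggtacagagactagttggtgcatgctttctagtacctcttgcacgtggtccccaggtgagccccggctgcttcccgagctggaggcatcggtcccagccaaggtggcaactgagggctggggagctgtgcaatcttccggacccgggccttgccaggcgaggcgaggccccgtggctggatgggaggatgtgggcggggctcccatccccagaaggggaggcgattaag
Id4 (chr13:48260866-48261115, plus strand, directly upstream of the RefSeq start, outside exons, GGCGCC beginning 148 bases before it): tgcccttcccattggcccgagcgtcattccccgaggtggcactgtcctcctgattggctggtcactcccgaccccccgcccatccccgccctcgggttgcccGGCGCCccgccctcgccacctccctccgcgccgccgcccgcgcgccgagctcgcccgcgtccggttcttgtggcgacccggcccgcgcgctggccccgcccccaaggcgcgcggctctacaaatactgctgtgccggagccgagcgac
Smad6 (chr9:64022056-64022175, minus strand, GTCTAGAC lying across the start, with its last 4 bases in the first exon): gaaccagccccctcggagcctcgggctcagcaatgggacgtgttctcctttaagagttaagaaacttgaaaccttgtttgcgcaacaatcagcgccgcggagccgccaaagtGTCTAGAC
Id2 (chr12:25096306-25096335, minus strand, GGCGCC beginning 231 bases before the RefSeq start, between exons of a longer annotated transcript): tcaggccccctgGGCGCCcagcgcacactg

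*Bmp4* (ENSMUSG00000021835, chromosome 14, 46383520 to 46390669, minus strand, GRCm38), the ligand with the best-known role in early mouse development, read 11.5, 10.9 and 11.2 CPM in WT, 32.3, 33.9 and 29.7 CPM in KO and 5.18, 4.9 and 5.31 CPM in KO_PAPC. The KO libraries were far above all others and the KO_PAPC libraries below all others, with no overlap among the 3 groups. Its means were 11.2 ± 0.308, 32.0 ± 2.12 and 5.13 ± 0.212 CPM (SD, n = 3). The log2 fold change was 1.51 ± 0.0596 (SE) in KO versus WT (edgeR adjusted p = 1.31e-21). With PA/PC it was 5.54-fold lower than in KO, with -2.47 ± 0.0725 on the log2 scale (edgeR adjusted p = 4.05e-27). *Bmp4* was then 1.94-fold below WT, at -0.96 ± 0.0833 on the log2 scale (edgeR adjusted p = 1.99e-10). Of its exon bases 3.959% also belong to *Gm15217*, so a small share of its reads could be uncertain.

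*Bmp2* (ENSMUSG00000027358, chromosome 2, 133552159 to 133562885, plus strand), whose product is a close relative of Bmp4 and binds the same receptors, was low, at 3.92, 3.09 and 2.93 CPM in WT and 2.98, 3.96 and 3.22 CPM in KO. The KO_PAPC libraries held 0.756, 0.621 and 0.861 CPM, from 21, 17 and 24 counts. WT and KO overlapped fully and KO_PAPC lay apart from both. In KO versus WT the log2 fold change of *Bmp2* was 0.03 ± 0.134 and was not called (edgeR adjusted p = 0.862). Its sign turned when WT replicate 2 or 3 or KO replicate 2 was left out. In KO_PAPC it was 4.02-fold lower than in KO (log2 fold change -2.01 ± 0.189, edgeR adjusted p = 4.78e-12) and 3.95-fold lower than in WT (-1.98 ± 0.191, edgeR adjusted p = 1.34e-09).

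*Bmp7* (ENSMUSG00000008999, chromosome 2, 172868012 to 172940321, minus strand), a ligand of the other main BMP subgroup, read 9.81, 10.5 and 10.9 CPM in WT, 12.3, 12.6 and 12.6 CPM in KO, and 5.15, 4.02 and 4.27 CPM in KO_PAPC. The 3 groups did not overlap, but the step from WT to KO was small. *Bmp7* rose 1.2-fold in KO, or by 0.26 ± 0.0687 on the log2 scale (edgeR adjusted p = 0.000937). Under PA/PC it was 2.49-fold lower than in KO (-1.31 ± 0.0892, edgeR adjusted p = 5.82e-16) and 2.07-fold lower than in WT (-1.05 ± 0.0957, edgeR adjusted p = 4.61e-10). In KO *Bmp4* thus rose 2.86-fold, *Bmp7* 1.2-fold and *Bmp2* had no call, whereas with PA/PC all 3 ligands were lower.

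Per length, *Bmp4* led the ligands in every group. Summed per kilobase of exon, the 3 ligands reached 8.643, 8.319 and 8.541 CPM per kb in WT, 18.27, 19.32 and 17.24 in KO and 3.799, 3.353 and 3.668 in KO_PAPC. *Bmp4* made up 58.52% of that sum in WT, 77.77% in KO and 63.28% in KO_PAPC. *Bmp7* made up 30.52%, 17.02% and 30.9%, and *Bmp2* 10.96%, 5.209% and 5.819%. The order *Bmp4*, *Bmp7*, *Bmp2* held in all 3 groups, at means of 4.97, 2.59 and 0.932 CPM per kb in WT.

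**Figure D2:**
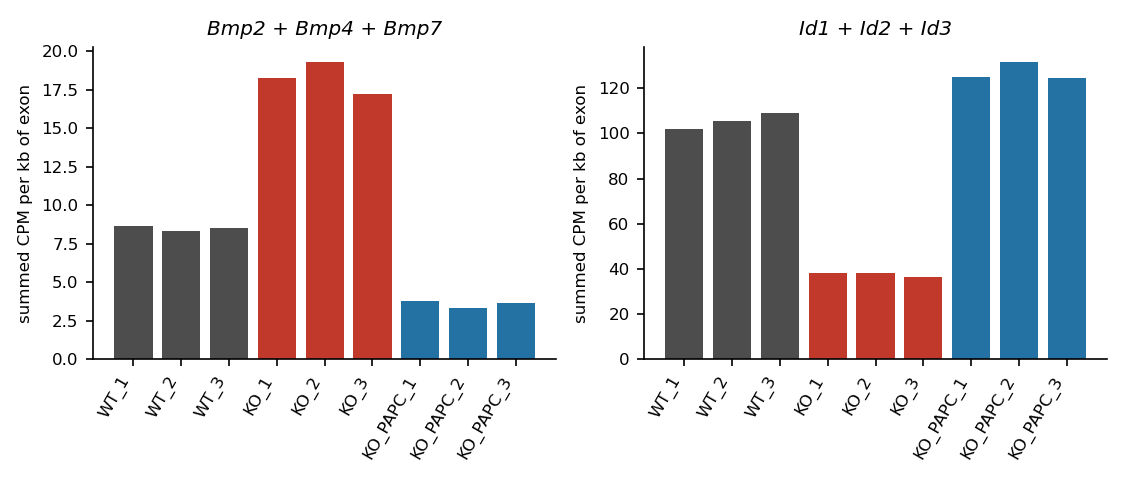
Summed CPM per kilobase of exon (y axis, from 0) of the 3 BMP ligands (left) and of Id1, Id2 and Id3 (right) in each library (x axis), 1 bar per library. The ligand sum is 17.24 to 19.32 in KO and at most 8.643 elsewhere, whereas the Id sum is 36.29 to 38.32 in KO and at least 101.9 elsewhere.

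*Id2* (ENSMUSG00000020644, chromosome 12, 25093799 to 25097140, minus strand), a partner that sequesters E proteins, had the largest changes by fold of the 10 genes against WT in KO and against KO in KO_PAPC. Its levels were 88.4, 82.9 and 89.1 CPM in WT, 14.6, 14.6 and 14.9 CPM in KO and 121, 116 and 113 CPM in KO_PAPC. The KO libraries were far below the rest, the KO_PAPC libraries highest, and no 2 groups overlapped. The 5.9-fold fall in KO was one of -2.56 ± 0.0446 on the log2 scale (edgeR adjusted p = 1.08e-31). With PA/PC *Id2* was 8.91-fold higher than in KO (3.16 ± 0.0433, edgeR adjusted p = 1.83e-37). Relative to WT it was then 1.51-fold higher (0.59 ± 0.0364, edgeR adjusted p = 2.78e-13).

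*Id1* (ENSMUSG00000042745, chromosome 2, 152736251 to 152737410, plus strand), the gene most often used as a readout of BMP-Smad activity, read 60.3, 67.0 and 68.6 CPM in WT, 27.7, 27.8 and 25.1 CPM in KO and 60.8, 68.9 and 63.8 CPM in KO_PAPC. KO lay apart from both other groups, while WT and KO_PAPC overlapped. It was lower in KO by -1.28 ± 0.0477 on the log2 scale (edgeR adjusted p = 2.74e-22), and with PA/PC it was 2.69-fold above KO (1.43 ± 0.0478, edgeR adjusted p = 2.36e-25). The difference between KO_PAPC and WT was small and depended on the scaling. With TMM factors *Id1* was 1.11-fold higher in KO_PAPC (0.15 ± 0.0473, edgeR adjusted p = 0.00766), but the mean CPM was 64.5 ± 4.13 in KO_PAPC and 65.3 ± 4.42 in WT. Scaled by library totals, the log2 fold change was -0.02 (edgeR adjusted p = 0.75). The call was also lost without WT replicate 1 (edgeR adjusted p = 0.071) or without KO_PAPC replicate 2 (edgeR adjusted p = 0.0786).

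*Id3* (ENSMUSG00000007872, chromosome 4, 136143497 to 136145755, plus strand), which overlaps *Id1* in function in the early embryo, showed a smaller fall in KO than *Id1* and *Id2*. Its libraries read 24.5, 24.4 and 24.2 CPM in WT, 15.2, 15.0 and 15.2 CPM in KO and 40.9, 44.2 and 41.1 CPM in KO_PAPC. All 3 groups were apart, with KO lowest and KO_PAPC highest. *Id3* changed by a log2 fold of -0.69 ± 0.0537 from WT to KO (edgeR adjusted p = 1.6e-13) and by 1.64 ± 0.0516 between KO and KO_PAPC (edgeR adjusted p = 3.57e-26). In KO_PAPC it was 1.93-fold above WT (0.95 ± 0.0476, edgeR adjusted p = 4.78e-15).

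*Id4* (ENSMUSG00000021379, chromosome 13, 48261228 to 48266026, plus strand), the family member best known from the nervous system, went the other way. It read 8.15, 6.43 and 7.21 CPM in WT, 19.5, 18.9 and 19.96 CPM in KO and 2.38, 2.34 and 1.97 CPM in KO_PAPC. The KO libraries were highest and the KO_PAPC libraries lowest, with no overlap. *Id4* was 2.68-fold higher in KO than in WT (log2 fold change 1.42 ± 0.072, edgeR adjusted p = 1.55e-18). It was 7.77-fold lower in KO_PAPC than in KO (-2.96 ± 0.0921, edgeR adjusted p = 2.62e-26) and 2.91-fold lower than in WT (-1.54 ± 0.124, edgeR adjusted p = 5.06e-11). Its exons share 4.443% of their bases with *A330033J07Rik* and *Gm49291*, and strand was not used in counting.

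The make-up of the Id family shifted with these changes. Per kilobase of exon, *Id1*, *Id2* and *Id3* together reached 101.9 to 109.2 CPM per kb in WT, 36.29 to 38.32 in KO and 124.4 to 131.7 in KO_PAPC. *Id1* was the most abundant of the 4 by this measure in every group, at 52.41% of the family in WT, 54.27% in KO and 43.59% in KO_PAPC. *Id2* came second in WT and KO_PAPC, at 33.15% and 37.54%, but gave only 14.12% in KO, below *Id3* at 19.77%. *Id4* took 1.757% of the family in WT, 11.85% in KO and 0.4541% in KO_PAPC. The whole family of 4 summed to 107.4 ± 3.508, 42.68 ± 1.054 and 127.5 ± 4.136 CPM per kb (SD, n = 3), so the rise of *Id4* in KO was small beside the loss of the other 3.

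**Figure D3:**
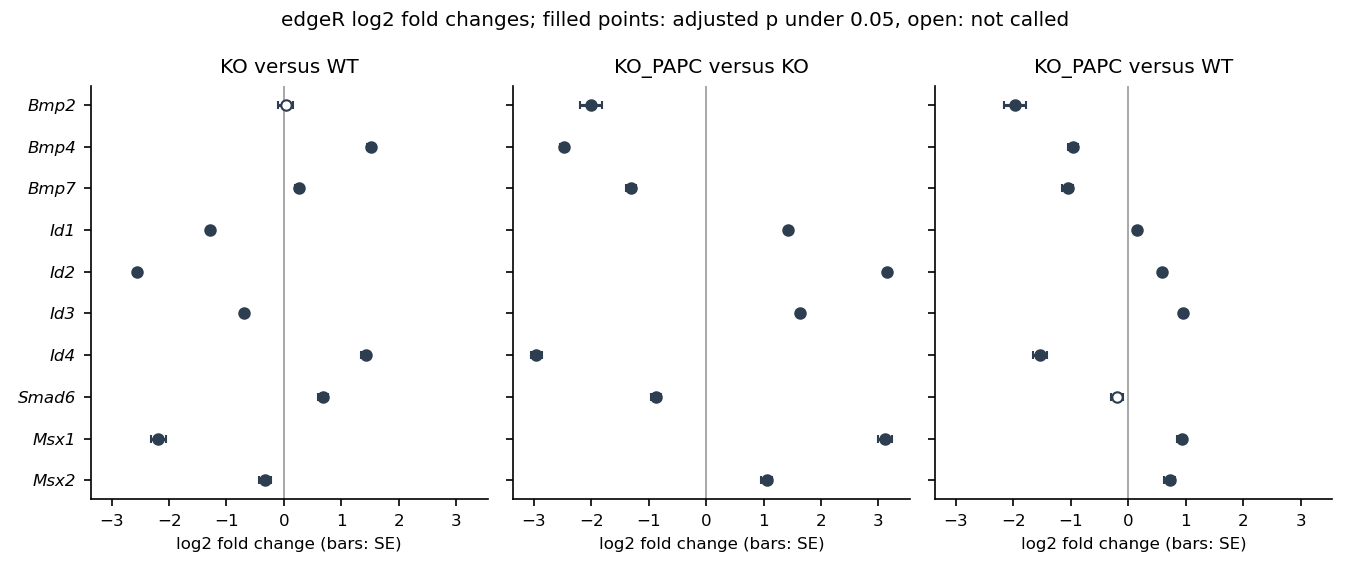
Log2 fold changes (edgeR, x axis) of the 10 BMP genes in the 3 contrasts, 1 panel each, with bars of ± 1 SE. In KO versus WT, Bmp4, Id4, Smad6 and Bmp7 lie to the right of 0 and Id2, Msx1, Id1, Id3 and Msx2 to the left. Id2 lies at -2.56 there and at 3.16 in KO_PAPC versus KO, where the reference group is KO and not WT.

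*Smad6* (ENSMUSG00000036867, chromosome 9, 63953076 to 64022059, minus strand), the feedback inhibitor that blocks Smad1 and type I receptors, read 5.82, 6.47 and 6.84 CPM in WT, 9.59, 10.1 and 11.0 CPM in KO and 4.61, 4.93 and 5.38 CPM in KO_PAPC. KO was the highest group without overlap. *Smad6* rose 1.6-fold in KO (0.68 ± 0.0839, edgeR adjusted p = 7.72e-09) and was 1.83-fold lower in KO_PAPC than in KO (-0.87 ± 0.0908, edgeR adjusted p = 6.12e-11). KO_PAPC and WT did not overlap in CPM, but the log2 fold change of -0.19 ± 0.101 was not called (edgeR adjusted p = 0.0904). It was called when scaled by library totals (-0.36, edgeR adjusted p = 0.00281) and without WT replicate 1 (-0.25, edgeR adjusted p = 0.0434). Thus *Smad6* changed in the direction of *Bmp4* and *Id4* in KO and under PA/PC, and not in that of *Id1*, *Id2* and *Id3*.

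*Msx1* (ENSMUSG00000048450, chromosome 5, 37820485 to 37824583, minus strand), a homeobox repressor expressed in mesenchyme and at the neural plate border, was the most strongly lowered of the 10 genes in KO after *Id2*. The WT libraries read 5.82, 5.64 and 5.98 CPM, the KO libraries 1.44, 1.11 and 1.28 CPM, and the KO_PAPC libraries 9.61, 10.1 and 9.87 CPM. The groups were well apart, although the KO level rested on 41, 31 and 37 counts. *Msx1* was lower in KO than in WT, at -2.18 ± 0.134 on the log2 scale (edgeR adjusted p = 2.88e-16). It was 8.66-fold higher in KO_PAPC than in KO (3.11 ± 0.12, edgeR adjusted p = 1.93e-23) and 1.9-fold higher than in WT (0.93 ± 0.0822, edgeR adjusted p = 2.83e-10).

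*Msx2* (ENSMUSG00000021469, chromosome 13, 53466884 to 53473074, minus strand), its paralogue with a similar homeodomain, followed the same order with smaller steps. It read 6.35, 6.0 and 5.58 CPM in WT, 4.76, 5.03 and 4.46 CPM in KO and 8.21, 9.21 and 8.94 CPM in KO_PAPC. No groups overlapped, although WT and KO lay close. *Msx2* was 1.26-fold lower in KO (-0.33 ± 0.0983, edgeR adjusted p = 0.00311), 2.07-fold higher in KO_PAPC than in KO (1.05 ± 0.0926, edgeR adjusted p = 7.95e-13) and 1.65-fold higher than in WT (0.72 ± 0.0883, edgeR adjusted p = 8.94e-08). Per length the paralogues were alike in WT, at 1.88 CPM per kb for *Msx1* and 1.82 for *Msx2*. In KO they were at 0.411 and 1.45 CPM per kb.

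The rest of the pathway was followed with 63 further genes in 7 lists. Of these, 13 were higher, 26 lower, 8 not called and 16 not tested between KO and WT, where 36.8% of all tested genes were higher and 37.1% lower. In KO_PAPC versus KO, 22 were higher, 15 lower, 11 not called and 15 not tested, beside 39.6% and 42.2% of all tested genes. In KO_PAPC versus WT the numbers were 20, 15, 12 and 16, beside 34.2% and 36.4%. The counts of the single lists below stand against the same shares, and no list was tested as a set. The median log2 fold change of those tested was -0.25, -0.06 and 0.12, beside the medians near 0 of all tested genes given above. Most of the 16 untested genes were ligands and secreted antagonists, such as *Bmp3*, *Bmp5*, *Gdf5*, *Cer1* and *Sost*, whose counts were too low.

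Among 11 other BMP-type ligands 4 could be tested in KO versus WT, with 2 higher and 2 lower. *Bmp6*, of the same subgroup as *Bmp7*, was 4.78 (WT), 1.38 (KO) and 1.05 (KO_PAPC) CPM on average. It fell in KO versus WT (-1.79 ± 0.146, edgeR adjusted p = 5.98e-13), was not called between KO_PAPC and KO (-0.23 ± 0.21, edgeR adjusted p = 0.31) and was lower in KO_PAPC than in WT (-2.02 ± 0.154, edgeR adjusted p = 1.8e-11). *Bmp8b*, a ligand of the germ cell lineage, averaged 0.741, 1.06 and 0.784 CPM and rose in KO versus WT at the edge of the threshold (0.52 ± 0.235, edgeR adjusted p = 0.0456). That call was lost in DESeq2 (adjusted p = 0.243), without a filter on low counts (edgeR adjusted p = 0.0776), with the replicate block (edgeR adjusted p = 0.0561) and without WT replicate 1 (edgeR adjusted p = 0.159), WT replicate 2 (0.148) or KO replicate 1, 2 or 3 (0.109, 0.0687 and 0.0666). The exons of *Bmp8b* also overlap other genes over 12.165% of their bases. The other tested ligands, *Gdf6* and *Bmp8a*, named after their values were seen, averaged under 1 CPM in every group.

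Of 10 receptors and co-receptors, 3 were higher, 5 lower and 2 not called between KO and WT, and 4 were higher, 4 lower and 2 not called in KO_PAPC versus KO. *Bmpr1a*, which encodes the main type I receptor for Bmp2 and Bmp4, averaged 156 (WT), 130 (KO) and 163 (KO_PAPC) CPM (KO versus WT -0.27 ± 0.0281, edgeR adjusted p = 3e-10). *Acvr1*, for the type I receptor that Bmp7 uses, changed by -0.25 ± 0.0502 in KO versus WT (edgeR adjusted p = 4.73e-05). The other type I receptors *Bmpr1b* and *Acvrl1*, named after their values were seen, were low, at 1.62 and 2.49 CPM in WT. *Bmpr1b* was 2.08-fold higher (1.06 ± 0.156, edgeR adjusted p = 2.72e-07) and *Acvrl1* 2.03-fold lower (-1.02 ± 0.175, edgeR adjusted p = 3.98e-06) in KO, and both were lower in KO_PAPC than in KO. The co-receptor *Eng*, which is known from endothelium, changed more, with 45.4, 62.1 and 17.4 CPM. It was 1.37-fold higher in KO than in WT (0.45 ± 0.0383, edgeR adjusted p = 1.31e-12) and 3.18-fold lower in KO_PAPC than in KO (-1.67 ± 0.0475, edgeR adjusted p = 1.49e-27).

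Among the 4 Smads that carry the signal, 3 were lower and 1 higher in KO versus WT, and 3 were higher and 1 lower in KO_PAPC versus KO. *Smad1*, which the BMP type I receptors phosphorylate, averaged 55.2 (WT), 26.0 (KO) and 57.7 (KO_PAPC) CPM. It was 2.12-fold lower in KO (-1.09 ± 0.0414, edgeR adjusted p = 4.95e-22) and 2.49-fold higher in KO_PAPC than in KO (1.32 ± 0.047, edgeR adjusted p = 1.91e-24). *Smad5*, with the same role, changed by -0.44 ± 0.0338 from WT to KO (edgeR adjusted p = 8.79e-14) and by 0.54 ± 0.0358 between KO and KO_PAPC (edgeR adjusted p = 2.23e-16). The shared partner *Smad4* changed by -0.52 ± 0.0305 (edgeR adjusted p = 7.81e-17) and 0.89 ± 0.0305 (edgeR adjusted p = 6.07e-25) in these contrasts. The exception was *Smad9*, named here after its values were seen, which was low at 0.574 (WT), 1.28 (KO) and 0.265 (KO_PAPC) CPM with a rise from WT to KO (1.15 ± 0.248, edgeR adjusted p = 0.000106) and a fall from KO to KO_PAPC (-2.08 ± 0.296, edgeR adjusted p = 6.68e-08). The 3 E proteins that Id proteins bind, *Tcf3*, *Tcf12* and *Tcf4*, were all lower in KO and all higher in KO_PAPC than in KO, but by less than *Id1* and *Id2* (largest edgeR adjusted p = 0.000101, for *Tcf3* in KO versus WT). Their log2 fold changes were -0.13, -0.36 and -0.21 in KO versus WT and 0.49, 0.59 and 0.33 in KO_PAPC versus KO.

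Of 18 secreted antagonists and modulators, 1 was higher, 8 lower, 2 not called and 7 not tested in KO versus WT, beside 36.8% higher and 37.1% lower of all tested genes. In KO_PAPC versus KO 6 were higher, 1 lower, 5 not called and 6 not tested, beside 39.6% and 42.2%. *Fst*, which encodes follistatin, a binding protein of activins and some BMPs, averaged 27.5 ± 1.87 (WT), 4.34 ± 0.305 (KO) and 34.8 ± 1.26 (KO_PAPC) CPM (SD, n = 3). It was 6.34-fold lower in KO (-2.66 ± 0.0755, edgeR adjusted p = 1.1e-25) and 9.0-fold higher in KO_PAPC than in KO (3.17 ± 0.0695, edgeR adjusted p = 4.09e-31), which are sizes close to those of *Id2*. *Fstl1* changed by -0.78 and 0.98 and *Twsg1*, a chordin partner, by -0.54 and 0.60 in the same contrasts. Of 6 inhibitors within or on the cell, 1 was higher, 4 lower and 1 not called in KO. *Bambi*, a decoy receptor that BMP itself induces, averaged 18.1, 12.4 and 25.1 CPM (-0.54 ± 0.0646 between WT and KO, edgeR adjusted p = 4.75e-09, and 1.18 ± 0.0597 with PA/PC against KO, edgeR adjusted p = 8.9e-20). The Smad corepressors *Ski* and *Skil* changed by -0.44 and -0.18 in KO versus WT and by 0.59 and 0.93 in KO_PAPC versus KO.

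Of 11 other genes known to respond to BMP, 5 were higher, 1 lower, 3 not called and 2 not tested in KO versus WT, beside 36.8% higher and 37.1% lower of all tested genes. In KO_PAPC versus KO 2 were higher, 6 lower, 1 not called and 2 not tested, beside 39.6% and 42.2%. The median log2 fold change of those tested was 0.67 and -0.91. *Tbx3*, a T-box factor of naive stem cells and extraembryonic tissue, averaged 115 (WT), 216 (KO) and 28.9 (KO_PAPC) CPM. It was 1.87-fold higher in KO (0.91 ± 0.0264, edgeR adjusted p = 2.34e-25) and 6.66-fold lower in KO_PAPC than in KO (-2.74 ± 0.0343, edgeR adjusted p = 1.27e-38). *Gata2* and *Hand1*, transcription factors of trophoblast and mesoderm, were at 0.633 and 0.777 CPM in WT, 4.79 and 4.53 in KO and 0.289 and 0.217 in KO_PAPC. Their log2 fold changes were 2.91 ± 0.173 and 2.54 ± 0.166 from WT to KO (edgeR adjusted p = 1.21e-16 and 1.6e-15) and -3.86 ± 0.21 and -4.19 ± 0.232 with PA/PC against KO (edgeR adjusted p = 8.38e-19 and 1.33e-18).

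**Figure D4:**
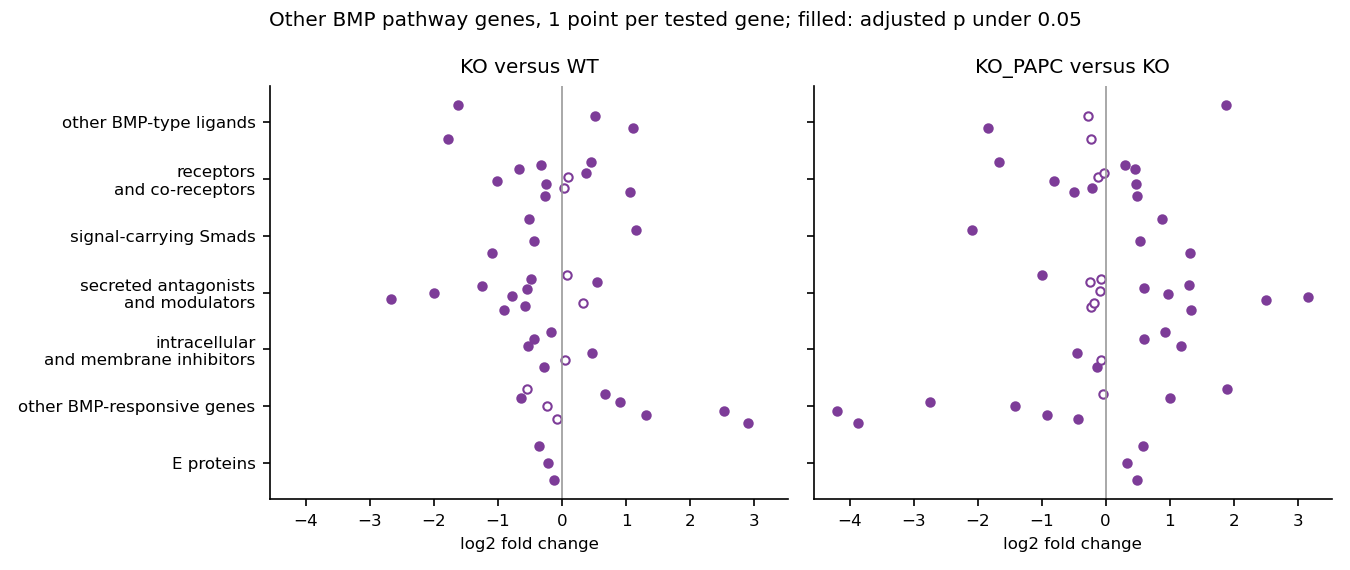
Log2 fold changes (edgeR, x axis) of KO against WT (left) and KO_PAPC against KO (right) for the tested genes of the 7 pathway lists (y axis), 1 point per gene, filled where called and open where not. In KO versus WT 8 secreted antagonists and the 3 E proteins lie below 0 as filled points, and 5 other BMP-responsive genes lie above 0, up to 2.91.

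In KO_PAPC versus WT several of these pathway differences were small and turned with the scaling. *Smad5*, *Ski* and *Tcf4* were called higher with TMM factors, at 0.10, 0.15 and 0.12, but had a lower mean CPM in KO_PAPC than in WT. *Bmpr1a*, *Acvr1*, *Smad1*, *Fstl1* and *Tcf12* kept their sign but lost their call under library totals. Of the BMP genes themselves, *Id1* was the gene whose sign turned in this contrast.

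The genes most like *Bmp4* and *Id1* were sought among 10378 genes that averaged 10 CPM or more in some group, by the distance between their log2(CPM + 1) values over the 9 libraries, each centred on its own mean. For *Bmp4* these were *Ptk2b* (distance 0.196), *Plxnd1* (0.312) and *Vsir* (0.317). Their means in WT, KO and KO_PAPC were 7.27, 20.9 and 3.34 CPM, 5.67, 17.4 and 2.7 CPM, and 3.9, 14.2 and 1.66 CPM. Of the other BMP genes *Id4* came closest to *Bmp4*, at rank 41 (0.55), with *Bmp7* at rank 653, *Bmp2* at rank 891 and *Smad6* at rank 979. For *Id1* the nearest were *Thap3* (0.121), *Fndc4* (0.171) and *Rprm* (0.202), and of the BMP genes *Id3* at rank 808 (1.02). *Msx2* at rank 1438 and *Msx1* at rank 1784 lay nearer to *Id1* than *Id2* did, at rank 6792 (2.145). *Bmp2*, *Msx1* and *Msx2* averaged under 10 CPM in every group and were thus outside the 10378 genes. Their ranks are the places that their distances would take among these. For genes this low the added 1 also shrinks the differences. All 9 libraries enter both rankings. Likeness here is closeness in the direction and size of the differences between libraries, and it is not evidence of shared control.

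Markers of the cell types an EB can hold also differed between the groups, in orders that varied from list to list. Their counts of higher and lower genes stand against the shares of all tested genes given above, and no list was tested as a set. The EBs were rich in pluripotency markers, whose 9 genes summed to 3614 to 3634 CPM in WT, 5044 to 5057 in KO and 3682 to 3786 in KO_PAPC. By gene, 6 were higher, 2 lower (*Tdgf1* and *Utf1*) and 1 not called (*Pou5f1*) in KO against WT, while 6 were lower and these 3 higher in KO_PAPC than in KO. Extraembryonic ectoderm and trophoblast are known to express *Bmp4*. Their 11 markers summed to 458.5 to 460.0 CPM in WT, 838.4 to 842.8 in KO and 289.0 to 290.8 in KO_PAPC. That sum had the order of *Bmp4*, but rested mostly on *Esrrb* and *Tfap2c*. *Esrrb*, which is also a pluripotency marker, gave 65.88%, 54.74% and 68.32% of it. *Tfap2c* gave 11.75% in WT and 34.98% in KO, and averaged 53.9 (WT), 294 (KO) and 27.4 (KO_PAPC) CPM. *Elf5*, a defining marker, had 0 to 4 counts in WT libraries, 4 to 10 in KO and 0 to 2 in KO_PAPC. By gene, 4 of the 11 were higher in KO versus WT (*Esrrb*, *Tfap2c*, *Hand1* and *Krt7*). Another 4 were lower (*Eomes*, *Krt8*, *Krt18* and *Plet1*), 2 not called and 1 not tested. Of the 11, *Hand1* and *Gata3* are also on the list of BMP-responsive genes above.

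The 10 neuroectoderm markers summed to 149.5 to 155.1 CPM in WT, 53.54 to 57.24 in KO and 239.9 to 243.6 in KO_PAPC. That is the order of *Id2*, *Id3*, *Msx1* and *Msx2*, and the primitive streak and neural crest sums below also had it. *Sox1* gave 47.29%, 33.53% and 49.45% of the neuroectoderm sum. Of the 10 neuroectoderm markers, 8 were lower and 1 higher in KO versus WT, beside 37.1% and 36.8% of all tested genes. In KO_PAPC versus KO 9 were higher, beside 39.6%. The 10 primitive streak and mesoderm markers summed to 17.22 to 20.39, 14.35 to 14.39 and 45.65 to 46.83 CPM, with 6 lower and 2 higher in KO versus WT and 6 higher and 2 lower in KO_PAPC versus KO. The 2 that were higher in KO, *Kdr* and *Mesp2*, gave 44.67% and 24.06% of the KO sum. Among the 6 lower ones, *T*, *Fgf8* and *Wnt3* fell 6.45-, 5.27- and 6.63-fold. The 7 neural crest markers, a lineage in which *Msx1* and *Msx2* are active, summed to 49.67 to 54.0, 27.18 to 28.01 and 56.12 to 61.21 CPM. *Foxd3* gave 51.55%, 32.56% and 73.3% of that sum. By gene, 4 were lower, 1 higher (*Sox10*) and 2 not called in KO against WT. In KO_PAPC 3 were higher than in KO, 2 lower (*Sox10* and *Ets1*) and 2 not called. Primitive and visceral endoderm, which expresses *Bmp2*, had the lowest values in KO_PAPC, with its 12 markers summing to 499.0 to 511.1 CPM in WT, 279.9 to 287.0 in KO and 36.33 to 37.22 in KO_PAPC, and 12 of 12 lower in KO_PAPC versus KO. In KO versus WT 8 of these 12 were lower and 4 higher, where *Bmp2* was not called. The 9 fibroblast markers summed to 52.16 to 53.41, 52.95 to 54.28 and 19.95 to 22.25 CPM. Of these, *Lum* stayed under 0.1 CPM in every library. *Pdgfra* gave 67.01% of the fibroblast sum in WT, and averaged 35.4 (WT), 13.3 (KO) and 2.34 (KO_PAPC) CPM. By gene, 3 were higher, 2 lower and 4 not tested in KO against WT. With PA/PC, 2 were higher than in KO, 3 lower, 1 not called and 3 not tested. Relative to WT, KO_PAPC had 4 higher, 1 lower (*Pdgfra*), 1 not called and 3 not tested, although its sum was lower. No listed marker was at 0 in all libraries. The part of these cell types in the levels of the BMP genes was not tested.

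**Figure D5:**
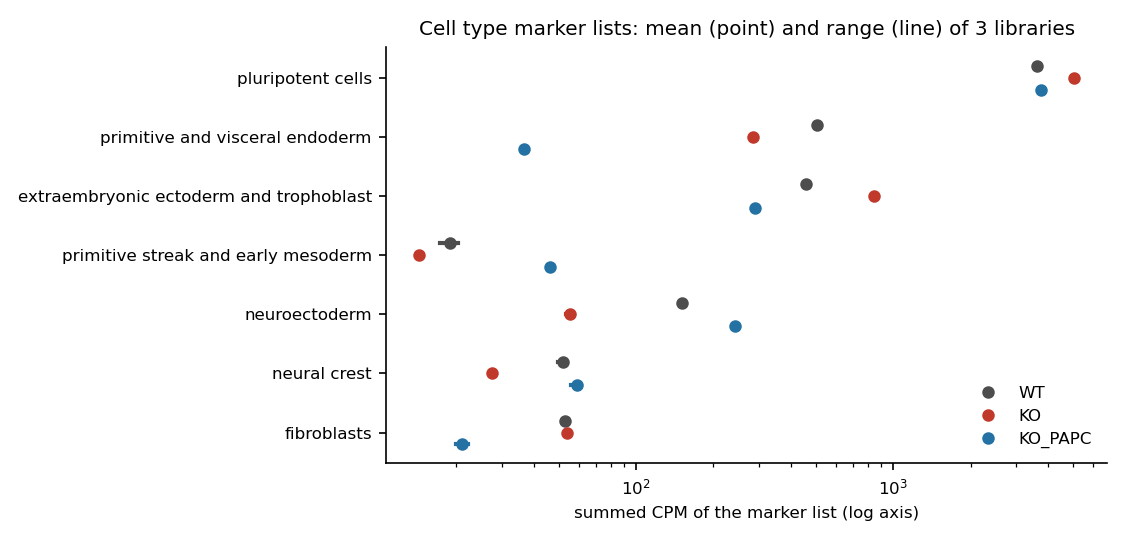
Summed CPM of each marker list (x axis, log scale) for the 7 cell types (y axis), with a point at the mean and a line over the range of the 3 libraries of each group. The neuroectoderm, primitive streak and neural crest sums are lowest in KO and highest in KO_PAPC, the order of Id2 and Id3. The extraembryonic ectoderm and trophoblast sum is highest in KO, where Esrrb and Tfap2c give 54.74% and 34.98% of it.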

How the data were processed

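RNA-seq was made from 9 pools of EBs, 3 per group, with groups and replicate numbers taken from the titles. The deposited values were read counts per Ensembl gene, as whole numbers that the authors had not normalized. Per the labels, bcl2fastq 2.20.0.422, STAR 2.7.2b, featureCounts 1.6.5 and the build GRCm38 were used, on unstranded single-end libraries. The methods leave multi-mapping and multi-overlapping reads uncounted and describe an earlier TopHat2 pipeline for WT against KO, although the table holds WT beside the other columns. Symbols came from GENCODE M21 (GRCm38) by Ensembl ID, with 241 of 55471 IDs unmatched.

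Counts were tested with edgeR 4.0.16 in R 4.3.3 (quasi-likelihood, TMM, filterByExpr, Benjamini-Hochberg over all tested genes, threshold of 0.05 on the adjusted p). The fit of a contrast used only the 6 libraries of its groups and no covariates. SEs were derived from the F statistic. Because 3 libraries against 3 cannot give a permutation p below 0.1, single values were not tested by permutation. The pipeline was also run on counts simulated from WT means, with 200 of 55471 genes changed. There edgeR recovered 99% of the changed genes with 13 false calls, and DESeq2 93% with 3. Far fewer genes changed there than were called in these data, so that run does not test the scaling used here. Alternatives were DESeq2 1.42.0, RLE factors, library totals, 2 other filters, a joint fit, the replicate number as a block, a tested minimum fold change of 2 and each library left out in turn. All 10 BMP genes were named, and from each of 7 pathway lists the 3 genes with the smallest adjusted p and a mean of at least 1 CPM in some group. The genes, lists and tests were chosen with earlier results of these data known. Promoters came from RefSeq (GRCm38.p6), and protein sequences were not used here.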

Additional observations from a re-analysis of the deposited data

How the results depend on the processing

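Of 420 refits of single BMP genes, 399 kept their direction and their side of the threshold, 15 lost a call, 2 gained one and 4 changed sign. For the other named genes the numbers were 802 of 868 kept, 62 lost and 4 changed in sign. The counts of called genes in either direction moved by over 1.5 times with a tested minimum fold change of 2, and the number called higher in KO_PAPC versus WT also did with library totals. The minimum fold change of 2 left 1587 called genes for KO against WT, 3554 for KO_PAPC against KO and 1335 for KO_PAPC against WT. Of the BMP genes it left 2 higher and 3 lower in KO versus WT, and between KO_PAPC and WT 0 higher and 2 lower by edgeR's glmTreat. At an unadjusted p under 0.05 it also gave 0 higher there, where DESeq2 without a minimum fold called 5. The log2 fold change of *Bmp2* in KO versus WT, which was not called, ran from -0.0975 to 0.161 as each library was left out, with a negative sign without WT replicate 2, WT replicate 3 or KO replicate 2.

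Scaled by library totals, the log2 fold changes in KO_PAPC versus WT turned to -0.0178 for *Id1*, -0.0679 for *Smad5*, -0.114 for *Twsg1* (edgeR adjusted p = 0.00753), -0.0107 for *Ski* and -0.0488 for *Tcf4*. With that scaling 5317 genes were higher and 8684 lower in KO_PAPC versus KO, in place of 6801 and 7246, and 3616 and 8341 in KO_PAPC versus WT, in place of 5693 and 6067. DESeq2 called 11449, 13545 and 10494 genes in the 3 contrasts. Leaving out each library in turn gave 12382 to 12820, 13785 to 14137 and 11208 to 11654. The deviations of same-numbered libraries had correlations between -0.107 and 0.177. The highest were 0.177 and 0.107, for replicates 1 and 2 of KO_PAPC and WT. Whether same-numbered libraries share more than a number was not tested. The replicate block gave 12587, 13822 and 12223 called genes, in place of 12813, 14047 and 11760. The BMP genes called with it were 4 higher and 5 lower, 5 and 5, and 5 and 4, as without it. Depth limited *Bmp2* and *Msx1* most, with as few as 17 and 31 counts in a library.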
